A study of Homo sapiens with 6 samples.

Results

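The 10 genes described here encode inhibitors of ERK signalling, several of which the pathway raises against itself. They are the MAP kinase phosphatase genes DUSP4, DUSP5, DUSP6 and DUSP7, the Sprouty genes SPRY1, SPRY2 and SPRY4, and the Sprouty-related genes SPRED1, SPRED2 and SPRED3. They were taken by gene symbol, as 10 of the 24294 rows of the deposited expression table, and each matched 1 row that carried no second symbol. Expression was measured by RNA sequencing in 3 libraries of MCF12A cells that stably over-expressed miR-424 and 3 libraries of MCF12A cells with an empty vector (EV), both grown for 48 hours. MCF12A is an immortalized, non-tumorigenic human mammary epithelial line, although the labels describe it as a breast cancer line. The comparison asked how stable over-expression of miR-424, a microRNA that the title of the series places downstream of TWIST1, alters the transcriptome of these cells.

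ERK is the last kinase of a relay in which an active receptor switches on RAS, and RAS switches on RAF, MEK and then ERK. Active ERK drives transcription of several of its own inhibitors, so the transcript levels of several of these genes are widely used as a readout of the pathway. The DUSP proteins remove phosphates from MAP kinases, DUSP6 and DUSP7 in the cytoplasm and DUSP4 and DUSP5 in the nucleus. Sprouty proteins act near the receptor and hold back the activation of RAS and RAF, and SPRED proteins bring the RAS inhibitor neurofibromin to the membrane.

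Mature miR-424-5p is shown first because a microRNA finds its targets mainly through its seed, bases 2 to 8, which is in capitals. The second sequence is miR-16-5p, of the miR-15/16 family, which has the same seed. Both are RefSeq sequences on GRCh38.p14, and miR-15a-5p, miR-15b-5p, miR-195-5p, miR-497-5p and miR-6838-5p share the seed as well.
hsa-miR-424-5p: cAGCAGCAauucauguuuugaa
hsa-miR-16-5p: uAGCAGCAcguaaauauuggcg

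In the annotated 3′ UTRs of the 10 genes (GENCODE 29, the longest UTR of each), the complement of this seed was present in SPRED1 and SPRY4. A match was either TGCTGCT, complementary to bases 2 to 8, or GCTGCT followed by an A. SPRED1 had 2 matches that met both conditions, starting at bases 1914 and 2304 of a UTR of 5585 nt. SPRY4 had 1 match to bases 2 to 8, at base 1165 of a UTR of 3782 nt. These windows of 30 bases show the matches in capitals.
SPRED1, first match: tttatatatttgaaTGCTGCTAcaacagat
SPRED1, second match: ttgtttaaccacttTGCTGCTAagattttg
SPRY4, only match: ttctcttctgattcTGCTGCTcactgtcat

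The other 8 genes held no match in their longest UTR. Of 10695 tested loci with a 3′ UTR of at least 30 nt, 28.8% held at least 1 match, and their median UTR was 1370 nt long. A match of letters is a description of the sequence and was not shown here to be bound.

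Of the 10 feedback inhibitors, 4 rose in miR-424 cells, namely DUSP6, SPRY4, SPRY2 and DUSP5, and 0 fell. Values are FPKM (fragments mapped to a locus, divided by its length and by all mapped fragments of the library). They were compared as log2(FPKM + 1) over all 11574 loci that averaged 1 FPKM or more over the 6 libraries, which all 10 genes did. A locus was called at a Benjamini-Hochberg adjusted p under 0.05 from limma. Over all these loci 1.24% were called higher and 6.32% lower in miR-424 cells, and 4 of the 10 genes were called higher. The 10 genes were chosen with earlier results of these data known. With median-of-ratios scaling between libraries the split over all loci was 308 higher and 495 lower, in place of 144 and 731, and the same count of 4 feedback inhibitors was called higher. With the trend of each library with transcript GC content removed it was 682 higher and 832 lower, with 5 feedback inhibitors higher. These counts also changed when a single library was left out. Without any 1 EV library, 1 feedback inhibitor (DUSP6) and 31 to 35 loci were called higher. Without miR-424 replicate 1 or 2, 2 feedback inhibitors (DUSP6 and SPRY4) and 63 or 83 loci were called higher, and without miR-424 replicate 3, 4 feedback inhibitors and 1728 loci were. The median log2 change was 0.05 for the 10 genes and -0.05 for all tested loci. In bulk RNA, a change in the level per cell and a change in the share of cells that express a gene cannot be told apart. Nothing in the labels says that the libraries of a group came from separate cultures or separately derived lines, so p-values measure the spread between these libraries, which may be technical.

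**Figure D1:**
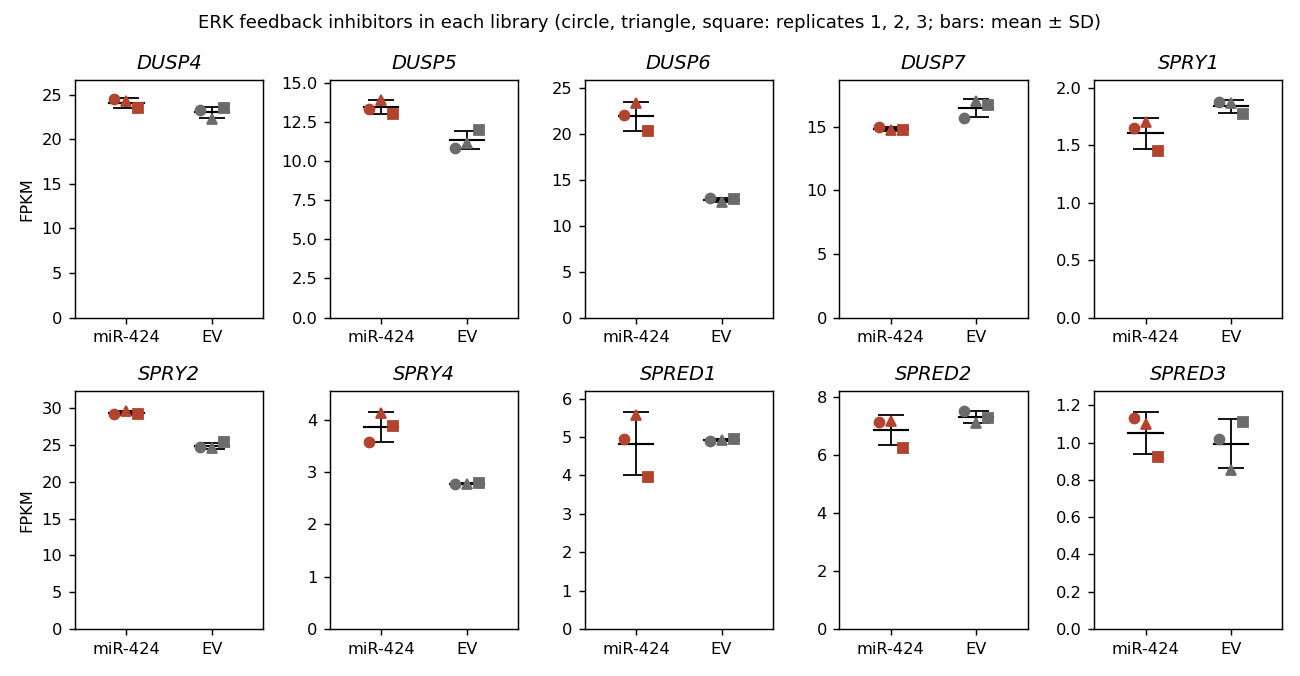
FPKM of each of the 10 genes in the 3 miR-424 libraries (left in each panel) and the 3 EV libraries (right). Symbols are replicates, horizontal lines are means and bars are SDs, and each axis starts at 0. DUSP6 shows the widest gap, with 20.3 to 23.4 FPKM in miR-424 libraries and 12.6 to 13.0 FPKM in EV libraries.

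The microRNA construct was read from its host locus, listed as MGC16121,MIR424, which had 107, 106 and 224 FPKM in miR-424 replicates 1, 2 and 3 and 0.989, 1.27 and 1.23 FPKM in EV replicates 1, 2 and 3. This reads RNA assigned to that locus, not the mature microRNA. RNA of the construct and of the endogenous locus cannot be told apart in it. The summed FPKM of a library lay between 409776 and 416076 in miR-424 cells and between 419938 and 424564 in EV cells, and the sources used here do not state read numbers. Replicate 3 of the miR-424 libraries stood apart: its median deviation from the EV mean over all tested loci was -0.11 on the log2 scale, against -0.02 for each of the other 2 miR-424 libraries. Its deviation also depended on base composition, with medians of -0.22 for transcripts under 40% GC and -0.05 for those over 60% GC, whereas in miR-424 replicate 1 these medians were 0.07 and -0.09. Of 8 mammary epithelial markers 5 averaged at least 1 FPKM, and their sum was 280 to 310 FPKM in miR-424 libraries and 312 to 327 FPKM in EV libraries. KRT5, a basal keratin, fell, with 40.7 FPKM in miR-424 and 63.7 FPKM in EV cells, and the basal keratin KRT14 rose, with 4.36 FPKM in miR-424 and 2.25 FPKM in EV cells (adjusted p = 0.00415 and 0.0165 by limma and Benjamini-Hochberg). KRT8, KRT18 and EPCAM did not pass. E-cadherin (CDH1) was near 0, with 0.0183 FPKM in miR-424 and 0.0228 FPKM in EV cells, and KRT19 and TP63 also averaged under 1 FPKM. All 3 mesenchymal markers were present, and their sum was 1416 to 1499 FPKM in miR-424 libraries and 1249 to 1275 FPKM in EV libraries. Of these FN1 (fibronectin) rose, with 421 FPKM in miR-424 and 265 FPKM in EV cells (adjusted p = 0.000668 by limma and Benjamini-Hochberg), while VIM and CDH2 did not pass, with log2 changes of 0.04 and 0.03. The summed fibroblast markers, of which COL1A1 and DCN were present at 1 FPKM or more, were 164 to 185 FPKM in miR-424 and 156 to 166 FPKM in EV libraries; COL1A1 was called higher and DCN was not. The part of these markers in the results on the feedback inhibitors was not tested. Summed leukocyte and endothelial markers were at most 1.78 FPKM and 0.322 FPKM in any library.

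DUSP6, the cytoplasmic phosphatase that is selective for ERK, showed the largest change of the 10 genes. It had 22.0, 23.4 and 20.3 FPKM in miR-424 replicates 1, 2 and 3, against 13.0, 12.6 and 12.9 FPKM in EV replicates 1, 2 and 3. Every miR-424 library lay above every EV library. The ratio of means was 1.71 and the log2 change 0.73 ± 0.06 (SE; adjusted p = 0.00211 by limma and Benjamini-Hochberg), which ranked 21 among the 11574 loci from the most positive change down. The miR-424 library with the highest FPKM at the MGC16121,MIR424 locus, replicate 3, had the lowest DUSP6 of its group. That library also lay lowest over all tested loci, with a median log2 deviation from the EV mean of -0.11, against -0.02 for replicates 1 and 2. A relation between the FPKM of that locus and DUSP6 was not tested. DUSP6 was called under all 17 alternative settings, including each library left out in turn, with log2 changes between 0.68 and 0.78. The locus lies at chr12:89741836-89746296 (hg19). In GENCODE 29 the gene AC024909.2, on the opposite strand, covers 40.5% of the exon bases of DUSP6, and because the sources used here do not state whether strand was used in counting, reads of the 2 genes cannot be told apart. No annotated exon of another gene overlapped the exons of the other 9 genes.

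DUSP7, the close relative of DUSP6 that also acts on ERK in the cytoplasm, had 15.0, 14.8 and 14.8 FPKM in miR-424 libraries and 15.7, 17.0 and 16.7 FPKM in EV libraries. All miR-424 values were below all EV values, with a log2 change of -0.14 ± 0.04 (SE), but the gene did not pass (adjusted p = 0.112 by limma and Benjamini-Hochberg). It passed only without miR-424 replicate 3 (log2 change -0.14; adjusted p = 0.0270 by limma and Benjamini-Hochberg). In miR-424 cells DUSP6 had the higher FPKM of these 2 cytoplasmic phosphatases, and in EV cells DUSP7 had.

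Both nuclear phosphatase genes lay higher in every miR-424 library, and DUSP5 passed the test. DUSP5, which binds ERK selectively in the nucleus, had 13.3, 13.9 and 13.0 FPKM in miR-424 libraries and 10.9, 11.1 and 12.0 FPKM in EV libraries. Its log2 change was 0.23 ± 0.05 (SE; adjusted p = 0.0432 by limma and Benjamini-Hochberg), close to the threshold. Among omissions of a library and other filters, the call ended without miR-424 replicate 1 or 2 (adjusted p = 0.119 for both by limma and Benjamini-Hochberg), without EV replicate 1, 2 or 3 (0.184, 0.192 and 0.0963), and without a filter on low values (0.0565), while the log2 change stayed between 0.20 and 0.31. The locus lies at chr10:112257624-112271302 (hg19). DUSP4, which acts on ERK and also on other MAP kinases, had 24.5, 24.2 and 23.5 FPKM in miR-424 libraries and 23.3, 22.3 and 23.5 FPKM in EV libraries. The groups touched without overlapping, and the difference, a log2 change of 0.06 with a 95% interval of -0.03 to 0.16, did not pass (adjusted p = 0.410 by limma and Benjamini-Hochberg). With the GC trend of each library removed the log2 change was 0.11 and the gene passed (adjusted p = 0.0495 by limma and Benjamini-Hochberg; the 17 alternatives spanned 0.0173 to 0.780).

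Taken as a sum, the 4 phosphatase genes had 74.2 ± 2.41 FPKM in miR-424 cells and 63.6 ± 1.24 FPKM in EV cells (SD, n = 3 each). DUSP6 made up 29.5% ± 1.14 of that sum in miR-424 cells and 20.1% ± 0.48 in EV cells.

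Among the Sprouty genes, SPRY4 and SPRY2 rose and SPRY1 did not pass the test. SPRY4, which holds back RAS activation downstream of growth factor receptors, had 3.57, 4.13 and 3.88 FPKM in miR-424 libraries and 2.77, 2.78 and 2.79 FPKM in EV libraries. Its EV libraries were nearly equal and all miR-424 libraries lay above them. The ratio of means was 1.39 and the log2 change 0.36 ± 0.05 (SE; adjusted p = 0.0132 by limma and Benjamini-Hochberg). SPRY4 is the gene whose UTR holds the single seed match shown above, and its transcript was higher in cells with the microRNA. Any action of the microRNA through that match was not tested. The call ended without EV replicate 1, 2 or 3 (adjusted p = 0.0804, 0.0826 and 0.0802 by limma and Benjamini-Hochberg), with log2 changes of 0.36 in each case. The locus lies at chr5:141689991-141704620 (hg19).

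SPRY2, which binds the adaptor GRB2 and the ubiquitin ligase CBL, was the most abundant of the 10 transcripts per length. It had 29.2, 29.7 and 29.2 FPKM in miR-424 libraries and 24.7, 24.6 and 25.3 FPKM in EV libraries. The gap between the groups was several times the spread within either of them. The ratio of means was 1.18 and the log2 change 0.23 ± 0.04 (SE; adjusted p = 0.0143 by limma and Benjamini-Hochberg). Among omissions of a library, the call ended without miR-424 replicate 1 or 2 (adjusted p = 0.0583 and 0.0532 by limma and Benjamini-Hochberg) and without EV replicate 1, 2 or 3 (0.0954, 0.105 and 0.0802), while the log2 change stayed between 0.22 and 0.29 over 17 alternatives. With any 1 EV library left out, the number of all loci called also dropped, to between 110 and 119 in place of 875. The locus lies at chr13:80910111-80915086 (hg19).

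SPRY1 had much the lowest level of the 3 Sprouty genes. Its values were 1.65, 1.71 and 1.46 FPKM in miR-424 libraries and 1.88, 1.87 and 1.78 FPKM in EV libraries. All miR-424 values were below all EV values, opposite in direction to SPRY2 and SPRY4, but the log2 change of -0.13 had a 95% interval that ended just above 0 and did not pass (adjusted p = 0.213 by limma and Benjamini-Hochberg). SPRY1 passed in 0 of the 16 alternatives that tested it. The summed Sprouty transcripts were 34.8 ± 0.60 FPKM in miR-424 cells and 29.5 ± 0.37 FPKM in EV cells (SD, n = 3 each), and SPRY2 held most of both sums.

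No SPRED gene passed the test, and the groups overlapped for all 3. SPRED1, whose UTR holds 2 seed matches, had 4.96, 5.58 and 3.95 FPKM in miR-424 libraries and 4.89, 4.92 and 4.94 FPKM in EV libraries. The 3 EV values were almost the same, while the miR-424 libraries lay on both sides of them. The log2 change was -0.03, with a 95% interval of -0.27 to 0.21 (adjusted p = 0.895 by limma and Benjamini-Hochberg). Its sign turned positive with median-of-ratios scaling (0.01), with quantile normalization (0.03) and without miR-424 replicate 3 (0.08, or 0.02 with the GC trend removed as well), with no call in any of them. The low value was that of replicate 3, the library that lay lowest over transcripts of low GC content, and SPRED1 has the lowest transcript GC content of the 10 genes, at 38.9%. With the GC trend removed the log2 change of SPRED1 was -0.01. The part of base composition in the value of that library was not tested further.

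SPRED2, which like SPRED1 recruits neurofibromin, had 7.14, 7.16 and 6.26 FPKM in miR-424 libraries and 7.54, 7.12 and 7.29 FPKM in EV libraries. Replicate 3 again was the low miR-424 library, and the other 2 lay within the EV range. The log2 change was -0.08 with a 95% interval of -0.23 to 0.06 (adjusted p = 0.454 by limma and Benjamini-Hochberg). SPRED3, the least abundant of the 10 genes, had 1.13, 1.10 and 0.923 FPKM in miR-424 libraries and 1.02, 0.850 and 1.11 FPKM in EV libraries. Its log2 change of 0.04 did not pass (adjusted p = 0.771 by limma and Benjamini-Hochberg), turned negative without EV replicate 2 (-0.01), and at this level the log2(FPKM + 1) scale understates differences. The 3 SPRED genes summed to 12.7 ± 1.42 FPKM in miR-424 cells and 13.2 ± 0.29 FPKM in EV cells (SD, n = 3 each).

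**Figure D2:**
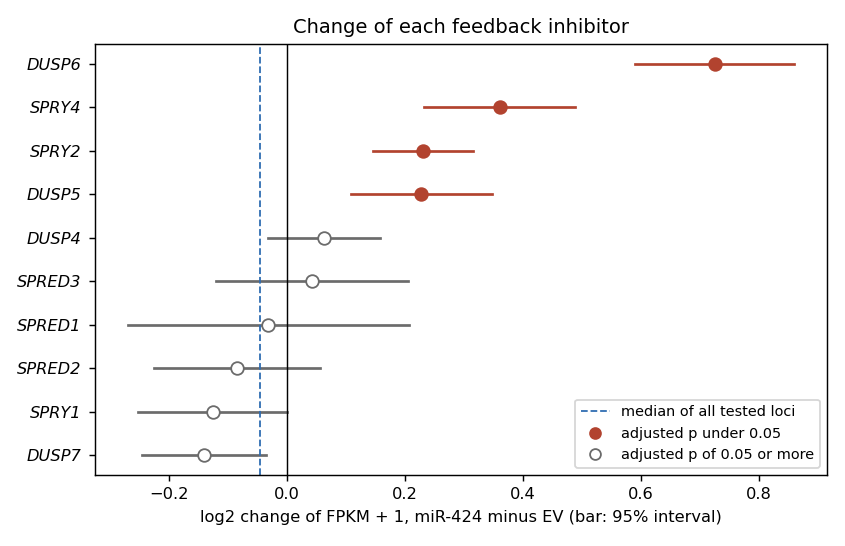
Log2 change of FPKM + 1, miR-424 minus EV, for each gene, with its 95% interval from limma. Filled points passed at an adjusted p under 0.05, and the dashed line is the median of all tested loci at -0.05. DUSP6 lies at 0.73, SPRY4 at 0.36, and SPRY2 and DUSP5 at 0.23, while the SPRED genes lie around the dashed line and 0.

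Across the 10 genes, the miR-424 libraries lay wholly above the EV libraries for 5, wholly below for 2 and overlapped for 3. Of all tested loci 6.59% were wholly above and 26.9% wholly below, so a gene that lay wholly below was common in this comparison. The genes that lay wholly above were the 4 called ones and DUSP4, and those wholly below were DUSP7 and SPRY1. Neither DUSP7 nor SPRY1 passed the test, and 2 wholly below of 10 is no larger a share than that of all loci. Whether the families differ from each other was not tested.

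The order of the levels per length was nearly the same in both groups. In miR-424 cells it ran from SPRY2 (29.4 FPKM) through DUSP4 (24.1), DUSP6 (21.9), DUSP7 (14.9), DUSP5 (13.4), SPRED2 (6.85), SPRED1 (4.83), SPRY4 (3.86) and SPRY1 (1.61) to SPRED3 (1.05). The only neighbours whose libraries overlapped in this order were SPRED1, with 3.95 to 5.58 FPKM, and SPRY4, with 3.57 to 4.13 FPKM. In EV cells DUSP7 (16.5 FPKM) stood above DUSP6 (12.8 FPKM), the other 8 genes held the same places, and no neighbours overlapped.

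The loci whose profile over the 6 libraries was most like that of DUSP6 were SCG5, F3, LAMA4, HMGA2 and FLJ22447, among 8304 other loci that averaged 5 FPKM or more. Likeness was measured as the root mean square difference between profiles of log2(FPKM + 1) centred on their means, and was 0.05 for SCG5, 0.06 for F3, LAMA4 and HMGA2, and 0.07 for FLJ22447. SCG5, which encodes a secretory granule chaperone, had 28.0, 28.4 and 25.0 FPKM in miR-424 libraries and 16.6, 17.0 and 15.9 FPKM in EV libraries. Like DUSP6 it was lowest in replicate 3 among the miR-424 libraries, as was the median of all tested loci. SCG5 was picked by its profile over these same libraries, so this likeness is no separate result. Of the feedback inhibitors above 5 FPKM, SPRY2 ranked 109, DUSP5 111, DUSP4 915, SPRED2 4994 and DUSP7 6678 in likeness to DUSP6. SPRY4, under 5 FPKM and so not ranked, was the closest of the feedback inhibitors, at 0.19, against 0.25 for both SPRY2 and DUSP5. These ranks and distances come from the same 6 libraries as the log2 changes, so they are no separate result either.

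Genes around the pathway were counted from lists that do not include the 10 genes. All these lists were chosen with earlier results of these data known, so their shares beside those of all loci are descriptive. In the RAS to ERK cascade 0 of 15 tested genes passed in either direction by limma, and 3 had an unadjusted p under 0.05, as did 23.6% of all tested loci. The median log2 change of the cascade was -0.06, close to that of all tested loci. SHC1, the adaptor with the highest FPKM of the list, had 207, 207 and 174 FPKM in miR-424 libraries and 195, 194 and 191 FPKM in EV libraries. Its miR-424 libraries fell on both sides of the EV libraries. Without miR-424 replicate 3 the cascade had 4 genes higher and 6 lower, while 1728 of all 11574 tested loci were higher and 2574 lower. With the GC trend removed as well, the cascade had 3 higher and 1 lower, beside 1680 and 1726 of 11407 loci.

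Upstream of the cascade, 2 of 7 tested EGF family genes rose and 1 fell, with a median log2 change of 0.19. Over all tested loci, 1.24% rose and 6.32% fell. By limma 6 of the 7 had an unadjusted p under 0.05 in either direction, against 23.6% of all tested loci. The list was chosen with earlier results of these data known, so this contrast is no separate support. The ligand gene EREG (epiregulin) had 4.95, 5.22 and 4.63 FPKM in miR-424 libraries and 3.30, 3.16 and 2.96 FPKM in EV libraries. TGFA, another ligand of the EGF receptor, had 12.7, 12.6 and 11.8 FPKM in miR-424 libraries and 10.8, 10.5 and 10.6 FPKM in EV libraries. The receptor gene ERBB2 was lower, with 7.18, 7.18 and 7.11 FPKM in miR-424 libraries and 9.01, 8.60 and 8.58 FPKM in EV libraries. The groups did not overlap for any of these 3 genes, and limma gave Benjamini-Hochberg adjusted p = 0.00587 for EREG, 0.0444 for TGFA and 0.0157 for ERBB2. Without miR-424 replicate 1 or 2, or EV replicate 1, 2 or 3, 1 rose and 0 fell. Without miR-424 replicate 3, 5 rose and 1 fell, beside 1728 and 2574 of all 11574 tested loci. Of 2 tested FGF receptor genes 0 passed by limma, and 1 had an unadjusted p under 0.05, which 23.6% of all tested loci had. That gene was FGFR1, with a log2 change of 0.10. FGFRL1, a receptor without a kinase domain, had 19.0, 19.3 and 25.9 FPKM in miR-424 libraries and 19.3, 20.0 and 20.0 FPKM in EV libraries, with replicate 3 the high library.

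Of 6 tested genes for other MAP kinase phosphatases, 0 were higher and 2 lower in miR-424 cells, against 1.24% and 6.32% of all tested loci. By limma 3 of the 6 had an unadjusted p under 0.05, against 23.6% of all tested loci. DUSP10, a phosphatase that acts mainly on the stress kinases JNK and p38, had 8.93, 8.89 and 8.33 FPKM in miR-424 libraries and 10.7, 10.8 and 10.9 FPKM in EV libraries. Its log2 change was -0.28 (adjusted p = 0.0147 by limma and Benjamini-Hochberg). DUSP9, a cytoplasmic ERK phosphatase of the same subgroup as DUSP6 and DUSP7, had 2.17, 1.99 and 1.85 FPKM in miR-424 libraries and 2.51, 2.71 and 2.86 FPKM in EV libraries (log2 change -0.30; adjusted p = 0.0324 by limma and Benjamini-Hochberg). These 6 genes had a median log2 change of -0.15. Without EV replicate 1, 2 or 3 no gene of this list was called, against 1 without miR-424 replicate 1 or 2. Without miR-424 replicate 3, 3 were lower and 1 higher, beside 2574 and 1728 of all 11574 tested loci. Among 9 tested other negative regulators of receptors and RAS, 1 had an unadjusted p under 0.05 by limma. Of these 9 genes 1 fell and 0 rose. It was TESK1, a kinase gene whose product binds Sprouty proteins, with 7.30, 6.78 and 7.60 FPKM in miR-424 libraries and 8.52, 8.93 and 8.41 FPKM in EV libraries (adjusted p = 0.0499 by limma and Benjamini-Hochberg). That call ended when any library other than miR-424 replicate 3 was left out and with both other scalings. Without miR-424 replicate 3 this list had 4 genes higher and 3 lower, beside the 1728 and 2574 of all tested loci.

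Of the 11 other ERK-responsive genes tested, 2 rose and 1 fell, against 1.24% and 6.32% of all tested loci. By limma 6 of the 11 had an unadjusted p under 0.05 in either direction, against 23.6% of all tested loci. This list, too, was chosen with earlier results of these data known, so the contrast is no separate support. ETV1, a transcription factor gene of the PEA3 group, had 9.05, 9.46 and 7.60 FPKM in miR-424 libraries and 6.05, 6.19 and 6.05 FPKM in EV libraries. ETV4 and ETV5, of the same group, did not pass, with log2 changes of -0.01 and 0.02. PHLDA1 had 83.9, 84.3 and 74.2 FPKM in miR-424 libraries and 63.7, 65.9 and 67.2 FPKM in EV libraries. CCND1, which encodes cyclin D1, was lower, with 66.0, 64.5 and 63.4 FPKM in miR-424 libraries and 80.6, 82.6 and 83.6 FPKM in EV libraries. By limma the Benjamini-Hochberg adjusted p was 0.0201 for ETV1, 0.0308 for PHLDA1 and 0.00467 for CCND1. The median log2 change of the 11 genes was -0.01. Without miR-424 replicate 1 or 2, or EV replicate 1, 2 or 3, 0 rose. Without miR-424 replicate 3, 4 rose and 3 fell, beside 1728 and 2574 of all 11574 tested loci. The fall of CCND1 ended without EV replicate 2.

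**Figure D3:**
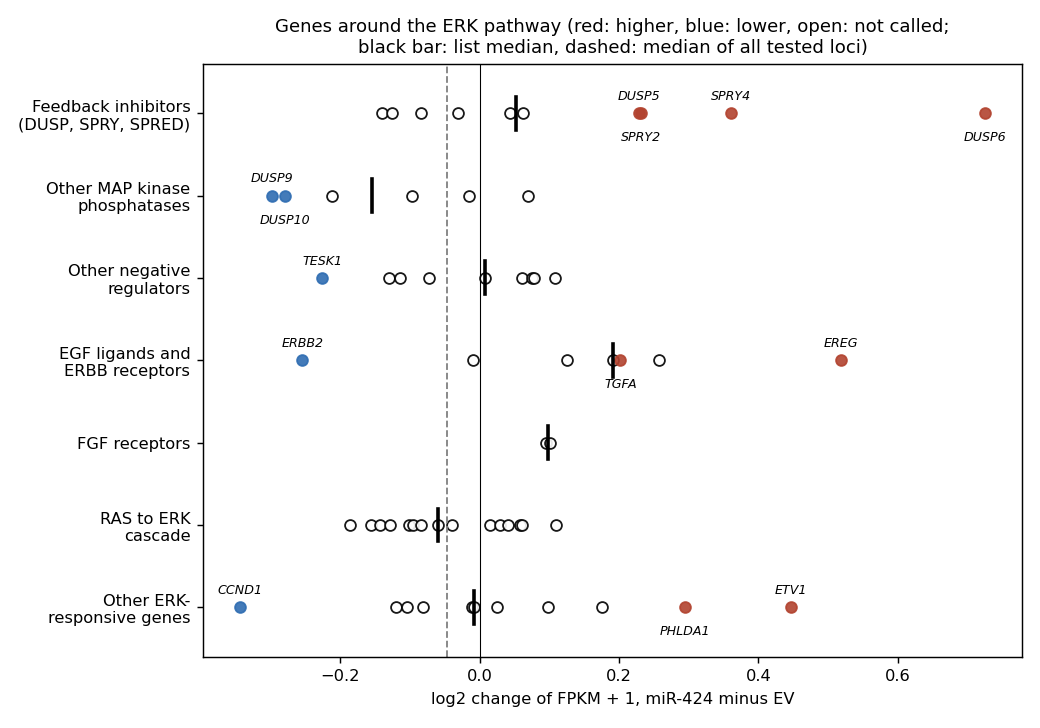
Log2 change of FPKM + 1, miR-424 minus EV, of each tested gene in the 10 feedback inhibitors and 6 lists around the ERK pathway. Red points were called higher, blue points lower and open points neither; black bars are list medians and the dashed line is the median of all tested loci. DUSP6 at 0.73 lies farthest to the right, followed by EREG at 0.52, and CCND1 at -0.34 lies farthest to the left.

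**Figure D4:**
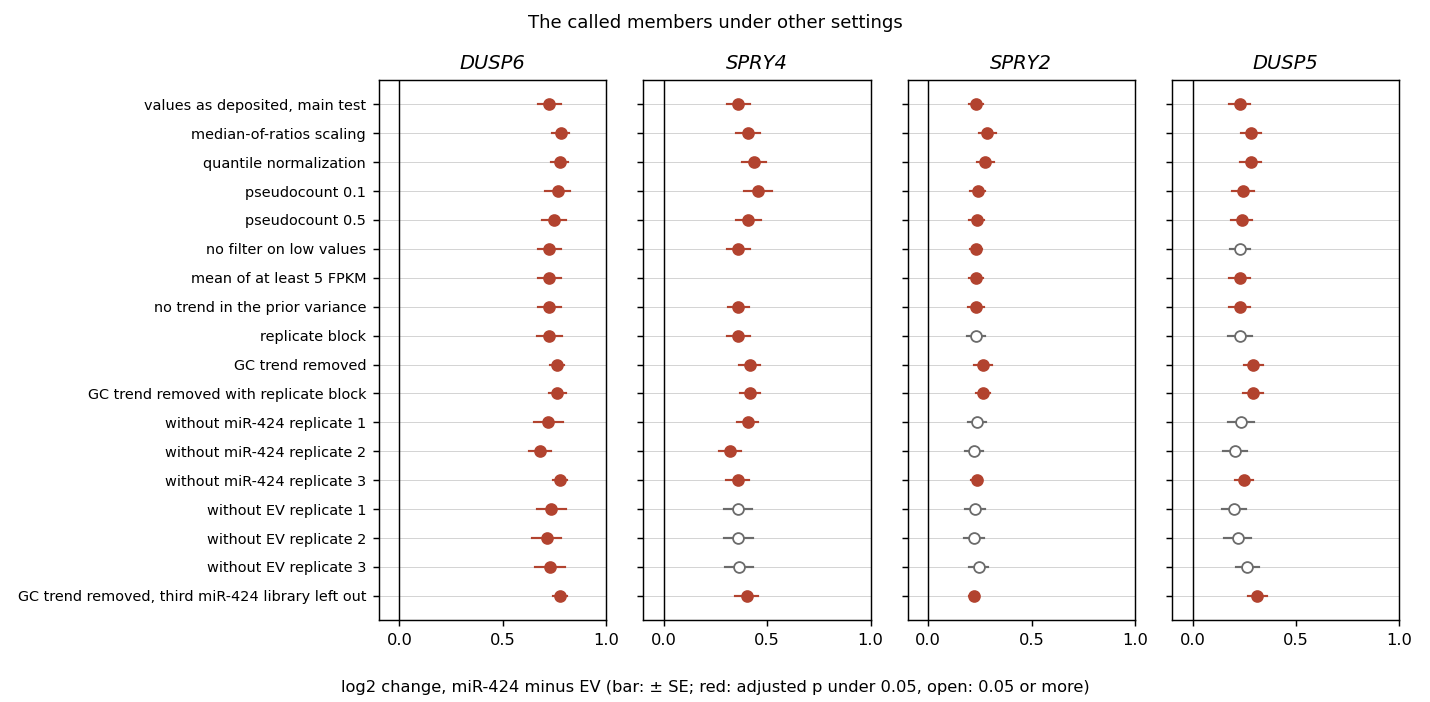
Log2 change, miR-424 minus EV, of the 4 called genes under the main test and 17 other settings, with bars for ± SE; red points passed at an adjusted p under 0.05 and open points did not. DUSP6 passed in 17 of 17 settings, SPRY4 in 13 of 16, SPRY2 in 11 of 17 and DUSP5 in 10 of 17, and all changes lie above 0. SPRY4 is under the minimum of 5 FPKM and has no point there.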

How the data were processed

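The authors deposited 1 table of FPKM values, with 1 column for each of the 6 libraries and an hg19 position per locus. The submitters' processing notes name TopHat 1.4.1, Cufflinks 1.3.0 and Cuffdiff without their roles. Read numbers, use of strand and any scaling of the libraries were not stated in the sources used here. Low values were searched for steps of whole fragments, but only 3.37% to 12.2% of low loci lay within 0.03 (log2) of the most frequent ratio to EV replicate 1, so counts were not recovered and no counting interval is given.

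Columns were matched to samples by title. Values were transformed to log2(FPKM + 1), the 11574 loci averaging 1 FPKM or more were fitted with limma (version 3.58.1, R 4.3.3; trended prior, no covariate, two-sided), and p-values were adjusted by Benjamini-Hochberg over all of them. Fold changes on this scale understate changes of low genes. An exact permutation test of 3 against 3 cannot go below a p of 0.1 and was not used. The GC trend was removed per library with lowess against transcript GC content from GENCODE 29, known for 98.6% of tested loci.

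The 10 genes and the lists were chosen with earlier results of these data known. Each list is illustrated by its called genes, at most 3 by smallest adjusted p, or, with no call, by its gene of highest mean FPKM. FGFR1, ETV4 and ETV5 are named besides. Alternatives were other scalings, pseudocounts (0.1 and 0.5), filters, prior, a replicate block, removal of the GC trend and each library left out. Protein sequences were not used here. Single values of some listed genes are not reported here.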

Additional observations from a re-analysis of the deposited data

How the results depend on the processing

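Of 166 log2 changes of the 10 genes under 17 alternatives, 147 kept their side of the threshold, 16 lost a call and 3 gained one, and 0 called changes turned their sign. The lost calls were those of DUSP5, SPRY2 and SPRY4, and the gained calls those of DUSP4 and DUSP7. Deviations of same-numbered libraries from their group means correlated across loci at 0.05, 0.15 and 0.13. Each miR-424 library correlated best with the EV library of its own number, but EV replicate 1 correlated slightly better with miR-424 replicate 2 (0.06). These low values do not settle whether replicate numbers pair the libraries. With the replicate block 2 of the 10 genes (DUSP6 and SPRY4) were called higher, while DUSP5 (adjusted p = 0.111) and SPRY2 (0.0661; limma, Benjamini-Hochberg) were not, with 79 loci higher and 270 lower over all loci; 1 EGF family gene and 1 other ERK-responsive gene were higher, and 0 EGF family genes, 0 other phosphatases and 0 other negative regulators were lower. The cause was not tested.

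Median-of-ratios scaling gave 308 higher loci and 0 lower negative regulators. Quantile normalization gave 319 higher and 447 lower loci, 1 lower phosphatase and 0 lower negative regulators. Without a filter 1 EGF family gene was higher, and 1 phosphatase, 0 negative regulators and 1 cascade gene were lower. At a mean of at least 5 FPKM, with fewer loci tested, 468 loci were lower, 1 EGF family gene was higher, and 1 phosphatase and 0 negative regulators were lower. Removing the GC trend gave 682 higher loci, with 4 EGF family genes, 1 FGF receptor, 1 negative regulator and 1 cascade gene higher, and 1 phosphatase and 0 negative regulators lower. Together with the replicate block it gave 394 higher loci, with 5 EGF family genes and 1 FGF receptor higher, and 1 phosphatase and 0 negative regulators lower. Removing it and leaving out miR-424 replicate 3, an alternative chosen after seeing the data, gave 1680 higher and 1726 lower loci; the higher genes were 1 phosphatase, 2 negative regulators, 4 EGF family genes, 1 FGF receptor, 3 cascade genes and 5 other ERK-responsive genes, and the lower ones 1 phosphatase, 3 negative regulators, 1 cascade gene and 2 other ERK-responsive genes.

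Leaving out 1 library at a time gave 1 to 4 of the 10 genes higher and 0 to 1 lower, and 31 to 1728 loci higher and 77 to 2574 lower. The same ranges of higher and of lower genes were 0 to 1 and 0 to 3 for other phosphatases, 0 to 4 and 0 to 3 for negative regulators, 1 to 5 and 0 to 1 for the EGF family, 0 to 1 and 0 for FGF receptors, 0 to 4 and 0 to 6 for the cascade, and 0 to 4 and 0 to 3 for other ERK-responsive genes. The highest of these counts came without miR-424 replicate 3, and the cause was not tested. The number of fragments behind each value is unknown, so low values such as those of SPRED3 have no stated counting error.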
